A study of Homo sapiens with 6 samples.

Results

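This account concerns DNase-accessible regions around 7 genes for transcription factors of the C/EBP family (CEBPA, CEBPB and CEBPD) and the Krüppel-like family (KLF4, KLF5, KLF6 and KLF9). Their members are all merged regions of the 6 peak lists whose nearest base lay within 100 kb of a given hg19 gene start. The starts were CEBPA 19:33793430, CEBPB 20:48807120, CEBPD 8:48650726, KLF4 9:110252047, KLF5 13:73633142, KLF6 10:3827473 and KLF9 9:73029573. This rule took 94 of 81216 regions, 48 around the C/EBP genes and 46 around the KLF genes. DNase-seq, in which the nuclease DNase I cuts accessible chromatin and the cut ends are sequenced, was performed on A549, a human lung adenocarcinoma line. Cells received 100 nM dexamethasone, a synthetic ligand of the glucocorticoid receptor, or 0.02% ethanol as the vehicle, each for 1 h, with 3 libraries per treatment. The labels number the libraries 1 to 3 and do not say whether they came from separate cultures. The p-values therefore set treatment differences against a spread between these libraries that may be only technical.

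C/EBP proteins are basic leucine zipper factors that bind DNA as dimers, and KLF proteins are zinc finger factors that bind GC-rich boxes. CEBPB and CEBPD are known as acute-phase and glucocorticoid-responsive genes, CEBPA as a regulator of differentiation in lung epithelium, fat and blood, and KLF9 as a gene that glucocorticoids induce in many cell types. KLF4, KLF5 and KLF6 act in epithelial proliferation and differentiation. The glucocorticoid receptor binds mostly at distal enhancers, many of them already accessible, and binding can widen or strengthen the accessible site.

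The lists held 58281 to 61344 peaks, of which 64 to 78 per library lay in the 7 windows. The files give peaks without read counts, so depth is unknown, and a missing peak shows only that the signal did not pass the threshold of the peak caller. No library had a peak over CDKN2A, a gene deleted in A549. Fold enrichment is the deposited value at a peak's summit over the caller's background for that library, and it describes peaks within their own list. Lists were therefore compared by calls. Regions with a peak in all 6 libraries, called shared here, were also compared by rank, since each library then ranks the same 39934 regions by −log10 q. A rank is given as a percentile among shared regions (100 is the strongest) and was tested with limma after conversion to a normal score, a scale on which 1 unit is 1 SD over all shared regions.

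The sequence before a gene start is shown because most starts lay in an accessible region in every library, with KLF9 as the exception. RefSeq promoter sequences (GRCh38.p14) matched 6 of the 7 genes, with 8 entries, since CEBPB and KLF5 each had 2 starts. Whether these starts are the hg19 starts above was not checked. Of each sequence the 250 bases before the start were searched on both strands. The motifs were AGAACA (the glucocorticoid receptor's hexamer), the palindromic receptor site (that hexamer and its reverse complement separated by any 3 bases, so that it contains the hexamer), TTGCNNAA (C/EBP), CACCC (KLF) and TGANTCA (AP-1). The 4 sequences below hold the highest and the lowest GC content of the 8 and every motif match outside the second CEBPB sequence, which lies just past the first CEBPB start and is not shown. They are written 5′ to 3′ with matches to a motif in capitals.
CEBPA, chr19:33302535-33302784, minus strand: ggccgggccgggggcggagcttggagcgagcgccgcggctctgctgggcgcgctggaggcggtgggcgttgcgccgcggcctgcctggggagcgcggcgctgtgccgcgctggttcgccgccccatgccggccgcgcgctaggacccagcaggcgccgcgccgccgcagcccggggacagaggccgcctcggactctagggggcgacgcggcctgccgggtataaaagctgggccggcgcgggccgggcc
KLF5, first start, chr13:73054726-73054975, plus strand: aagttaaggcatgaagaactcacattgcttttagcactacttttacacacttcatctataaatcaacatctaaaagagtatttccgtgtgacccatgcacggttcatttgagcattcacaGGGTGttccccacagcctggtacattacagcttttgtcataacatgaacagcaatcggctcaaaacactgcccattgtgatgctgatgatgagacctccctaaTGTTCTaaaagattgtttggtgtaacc
KLF5, second start, chr13:73058755-73059004, plus strand: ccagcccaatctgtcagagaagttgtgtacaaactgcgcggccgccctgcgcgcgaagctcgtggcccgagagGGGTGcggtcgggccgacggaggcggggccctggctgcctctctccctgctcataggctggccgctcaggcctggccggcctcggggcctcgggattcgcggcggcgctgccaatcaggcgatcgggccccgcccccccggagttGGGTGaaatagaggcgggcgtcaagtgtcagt
KLF9, chr9:70414658-70414907, minus strand: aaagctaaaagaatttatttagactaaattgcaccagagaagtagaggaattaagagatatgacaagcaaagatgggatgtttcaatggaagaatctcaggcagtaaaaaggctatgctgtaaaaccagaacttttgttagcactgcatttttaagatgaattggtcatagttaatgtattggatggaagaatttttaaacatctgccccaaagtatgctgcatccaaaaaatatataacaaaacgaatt

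The KLF9 sequence had a GC content of 32.4% and the CEBPA sequence one of 81.2%, beside a median of 58% over 35116 promoters. The first KLF5 start held the only receptor hexamer, 27 bases before the start, and the hexamer was found in 12.4% of all promoters. Which of the 2 KLF5 starts, if either, is the hg19 start was not checked. The hexamer is therefore not placed in the accessible region at the KLF5 start. The KLF motif occurred in 3 of the 8 entries, namely 2 matches at the second CEBPB start, 1 at the first KLF5 start and 2 at the second KLF5 start. It was present in 54.7% of all promoters. No palindromic receptor site, C/EBP or AP-1 motif was found in the 8 entries, against 0.0114%, 9.05% and 6.57% of all promoters. The letters of a motif are a description of the sequence and no evidence of binding.

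The question of which parts of these loci were accessible in either treatment was addressed first. Of the 94 regions, 48 (51.1%) had a peak in all 6 libraries, beside 49.2% of all merged regions. The CEBPB window held the most regions, 22 with 15 shared, followed by CEBPA with 18 and 11 shared. KLF6 had 16 regions with 5 shared, KLF4 12 with 6, KLF9 10 with 4, KLF5 8 with 4 and CEBPD 8 with 3. For scale, tiles of 200 kb with at least 1 region held a median of 6, and 3% of tiles held at least 22. The shared regions around the 7 genes had a median width of 555.5 bp, against 482 bp for all shared regions. In strength, 7 of 48 (14.6%) averaged above the 90th percentile of their own lists, as did 14.4% of all shared regions. The median of these mean percentiles was lower for the 48, 59.6 beside 64.3 for all shared regions.

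**Figure D1:**
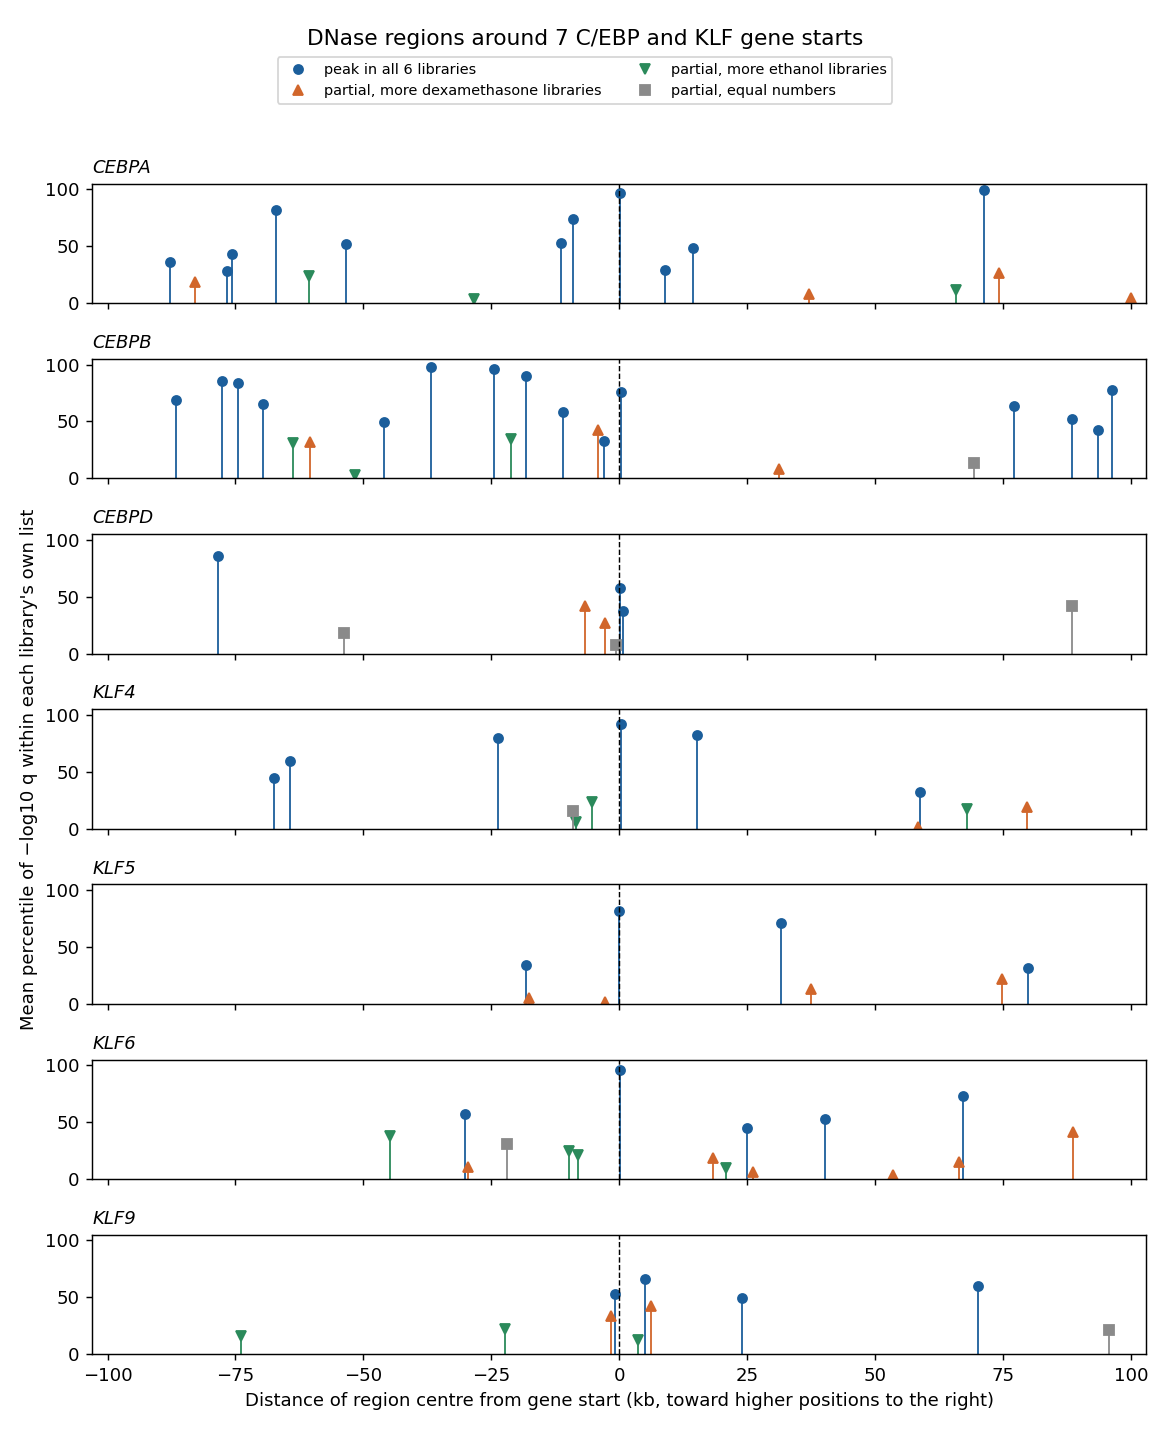
Regions around the 7 gene starts: the x axis gives the distance of the region centre from the gene start in kb (positive toward higher positions), the y axis the mean percentile of −log10 q within the own list of each library that called it. Blue circles are the 48 regions with a peak in all 6 libraries, and triangles and squares are the 46 called in 1 to 5 libraries, none of which averages above the 50th percentile.

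Weak regions made up the rest. The 46 regions called in 1 to 5 libraries had mean percentiles of 1.20 to 42.9, and 19 of them were called in a single library. Peaks per window and library differed little between treatments. KLF5 had 7, 6 and 8 peaks with dexamethasone (replicates 1 to 3) and 5, 5 and 5 with ethanol, the only window whose libraries did not overlap (exact two-sided permutation p = 0.1, the smallest that 3 against 3 can give). CEBPA had 15 ± 1 peaks in either treatment (SD, n = 3 each). CEBPB had 18.7 ± 0.6 with dexamethasone and 18.7 ± 1.5 with ethanol (SD, n = 3 each). In the other 4 windows the counts of the treatments overlapped as well.

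No region near these genes was called throughout one treatment and nowhere in the other. A peak called after dexamethasone in each library and never with ethanol was found in 0 of the 94, beside 1.1% of all regions, and the reverse likewise in 0, beside 0.662%. With 3 libraries a side, the calls of 1 region give an exact p of 0.1 at the lowest. In a pattern picked after the values were seen, 4 regions (4.26%) were called throughout the dexamethasone group but in only 1 ethanol library, beside 1.23% of all regions. The mirror pattern, 3 ethanol libraries and 1 with dexamethasone, occurred in 0 of the 94 and in 1.74% of all regions. They lay 6.1 kb upstream of KLF9, 18.1 kb upstream of KLF6, 37.2 kb downstream of KLF5 and 2.6 kb below the start of CEBPD. The ethanol library with the peak was replicate 1 in the first, second and last of these and replicate 3 at KLF5. Without ethanol replicate 1 these 3 would count as dexamethasone-only (3 of 89 regions or 3.37%, beside 1.54% of all). The KLF5 region would count so without ethanol replicate 3 (1 region, beside 1.62%). Leaving out dexamethasone replicate 1 gave 2 other dexamethasone-only regions, at KLF6 and KLF9 (2.22%, beside 1.76% of all). The KLF9 one begins at 73028108, as does the shared region nearest the KLF9 start. It is a piece of that shared region, split off by the changed merging. Leaving out dexamethasone replicate 2 also gave 2, at KLF6 and KLF5 (2.11%, beside 1.7%). Ethanol-only regions numbered 2 without ethanol replicate 1, both at KLF4 (2.25%, beside 1.84%), and 1 without ethanol replicate 3, at KLF9 (1.06%, beside 1.4%). With 1 library left out, the departures went both ways. Dexamethasone-only regions were 3.37% beside 1.54% of all without ethanol replicate 1, and 0% beside 2.17% without dexamethasone replicate 3. Each rests on at most 3 regions, too few to tell a difference from the share of all.

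The labels do not say that equally numbered libraries form pairs. Equal numbers were taken as pairs because deviations from the treatment mean correlated weakly between them (r = 0.124 to 0.208). On that assumption a replicate block was also applied to the calls. It asks for a peak in 1 treatment alone in at least 2 of 3 numbered pairs and for no pair with the reverse. Under this looser rule 7 of 94 regions (7.45%) were dexamethasone-only, beside 4.47% of all regions. They were the 4 regions above, 2 further ones at KLF6 (26.1 and 66.3 kb upstream) and 1 at KLF5 (17.5 kb upstream). Another 3 of 94 (3.19%) were ethanol-only, beside 4.8% of all: 73.7 kb downstream of KLF9, 8.4 kb downstream of KLF4 and 67.9 kb upstream of KLF4.

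The next question was whether regions present in both treatments differed in strength. None of the 48 shared regions passed limma's test at an adjusted p of 0.05, and the lowest adjusted p among them was 0.17. At an unadjusted p under 0.05, 8 ranked higher and 2 lower with dexamethasone, beside 3.65% and 3.2% of all shared regions. Genome-wide the test called 2 regions higher (0.00501%) and 0 lower. With limma's trend and robust shrinkage, an alternative variance model, 93 regions were called higher and 5 lower, and 2 of the 48 were among those called higher, at KLF9 and near CEBPD. In 7 of the 48 (14.6%) all 3 dexamethasone ranks lay above all 3 ethanol ranks, beside 5.79% of all shared regions. In 4 (8.33%) they lay below, beside 5.62%. Within numbered pairs, an order looked at after the data were seen, the dexamethasone rank was higher in all 3 pairs in 12 of the 48 (25%) and lower in 10 (20.8%), beside 14.2% and 14.6% of all shared regions. The median difference over the 48 was 0.05 units of normal score, and that over all shared regions -0.0049.

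**Figure D2:**
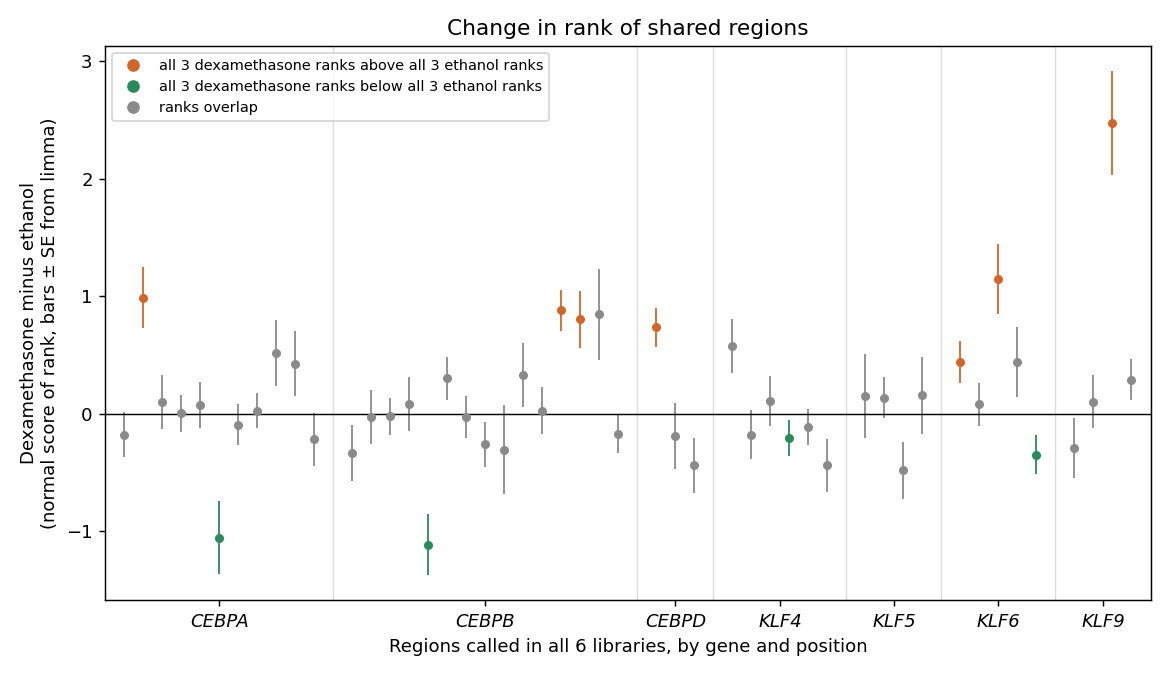
Difference in normal score of rank, dexamethasone minus ethanol, for each of the 48 shared regions (points, with the SE from limma as bars), ordered by gene and position. Orange marks the 7 regions whose dexamethasone ranks all lay above the ethanol ranks, green the 4 with the reverse. The region 23.8 kb upstream of KLF9 stands highest at 2.47.

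CEBPA encodes C/EBPα, and its start lay in a wide region (33792945 to 33794234 on chromosome 19, 1290 bp) with a mean percentile of 96.8 within the lists. Its fold enrichments were 9.16, 9.06 and 9.06 with dexamethasone and 8.65, 8.82 and 9.35 with ethanol. The treatments overlapped, and the mean percentiles among shared regions were 95.3 and 95.0. The strongest region of the window lay 70.7 kb upstream (33864138 to 33865267), with folds of 11.9, 12.7 and 10.1 against 11.3, 12.4 and 12.1. RefSeq's gene order (GRCh38.p14) places CEBPG, another C/EBP gene, next to CEBPA on that side, and the assignment of this region to CEBPA rests on distance alone.

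A region 11.2 kb downstream of the CEBPA start (33781931 to 33782265) was weaker with dexamethasone in each list. Its folds were 3.21, 4.14 and 4.53 with dexamethasone and 5.02, 5.55 and 5.75 with ethanol. The groups did not overlap, with mean percentiles of 19 and 52 and a difference of -1.06 ± 0.31 (SE, n = 3 each), and limma's adjusted p was 0.48. The opposite order was seen 76.6 kb downstream (33716578 to 33716872), a weak region with percentiles of 16.8, 36.6 and 8.99 against 3.17, 2.26 and 4.02. Here the difference was 0.99 ± 0.26 (SE, limma adjusted p = 0.42). On the downstream side RefSeq has SLC7A10 as the next protein-coding gene, and this region too is assigned to CEBPA by distance alone. The other 9 shared regions of CEBPA overlapped between treatments. Among them, the dexamethasone rank was higher in every numbered pair 8.7 and 14.0 kb upstream and lower in every pair 87.6 kb downstream.

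CEBPB encodes C/EBPβ, a mediator of the acute-phase response. Its window held a row of strong upstream regions. The region 24.1 kb upstream (48782281 to 48782977 on chromosome 20) had folds of 17.4, 16.8 and 14.5 with dexamethasone and 14.5, 15.8 and 15.7 with ethanol. That 36.5 kb upstream (48769989 to 48770649) had the highest mean percentile within the lists at this gene, 98.2, with folds of 16.5, 15.5 and 14.7 against 13.8, 15.4 and 14.6. In both regions the treatments overlapped, although at 36.5 kb the dexamethasone rank was higher in every numbered pair. RefSeq's gene order places PEDS1-UBE2V1 next to CEBPB on the upstream side. The assignment of these upstream regions to CEBPB rests on distance alone. The start itself lay in a region of moderate strength (48806902 to 48807875), with folds of 6.20, 5.87 and 5.25 against 6.29, 5.47 and 5.85.

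The regions at CEBPB with the largest positive differences that separated the treatments lay downstream of the gene. At 76.8 kb downstream (48883901 to 48884535) the folds were 8.94, 9.24 and 7.81 with dexamethasone and 6.22, 6.44 and 5.92 with ethanol. All 3 dexamethasone values were higher, the mean percentiles being 64.4 and 30.9. The difference was 0.88 ± 0.18 (SE, n = 3 each), and limma's adjusted p was 0.24. At 88.3 kb downstream (48895402 to 48895849) the percentiles were 55.2, 49.1 and 35.2 against 25, 9.17 and 25.1, again without overlap (difference 0.80 ± 0.24, limma adjusted p = 0.49). A further region 93.3 kb downstream (48900398 to 48900740) had percentiles of 40.4, 50.5 and 14.9 against 22.3, 15.9 and 2.07, so that dexamethasone replicate 3 lay below 2 ethanol libraries, although the dexamethasone library was higher in all 3 numbered pairs (0.84 ± 0.39, limma adjusted p = 0.77). The last region of the window, at 96.0 kb, showed no such order, with mean percentiles of 63.7 and 70.1. PTPN1, a phosphatase gene, is the next protein-coding gene on that side in RefSeq.

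A region 45.8 kb upstream of CEBPB (48760830 to 48761309) had the opposite order. Its folds were 5.10, 6.70 and 6.76 with dexamethasone and 9.16, 7.46 and 9.30 with ethanol. The groups did not overlap, with mean percentiles of 14.0 and 49.1. The difference of -1.11 ± 0.26 (SE, n = 3 each) was the most negative of the 48, with a limma adjusted p of 0.33.

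CEBPD encodes C/EBPδ, which is inducible by glucocorticoids and inflammatory signals. Its start region (48650590 to 48651180 on chromosome 8) had folds of 6.10, 5.58 and 4.73 with dexamethasone and 5.31, 6.42 and 5.91 with ethanol, which overlapped. A second shared region 0.5 kb toward higher positions (48651264 to 48651746) had percentiles of 17.0, 9.64 and 6.89 against 33.2, 19.9 and 12.8, so that the groups overlapped although dexamethasone was lower in all 3 numbered pairs. The difference was -0.44 ± 0.23 (limma adjusted p = 0.84, and 0.54 with the replicate block). The weak region 2.6 kb toward lower positions (48647789 to 48648097) had folds of 3.99, 3.91 and 3.68 with dexamethasone and 3.55 in ethanol replicate 1, with no peak in ethanol replicates 2 and 3.

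The strongest region of the CEBPD window lay 78.0 kb toward lower positions (48571937 to 48572687), the side on which RefSeq has SPIDR as the next protein-coding gene. The folds were 14.4, 14.3 and 11.8 with dexamethasone and 11, 11.7 and 10.3 with ethanol. All dexamethasone values lay above all ethanol values, dexamethasone replicate 3 by a small margin in fold. In percentiles among shared regions the gap was wider, 90.6, 87.2 and 87.4 against 71.9, 70.2 and 61.4. The difference was 0.73 ± 0.16 (SE, n = 3 each), with a limma adjusted p of 0.31, and this region passed with trend and robust shrinkage (limma adjusted p = 0.014).

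KLF4, a factor of epithelial differentiation, had its start in a strong region (110251900 to 110252712 on chromosome 9). Its folds were 10.9, 11.2 and 10.04 with dexamethasone and 11.8, 11.8 and 11.9 with ethanol. All dexamethasone values lay below the ethanol values, yet the percentiles were close, 88.0, 86.7 and 83.7 against 90.1, 90.0 and 90.8. The difference was -0.21 ± 0.15 (SE, limma adjusted p = 0.92). The largest positive difference at KLF4 was found 67.2 kb downstream (110184505 to 110184838), with folds of 7.43, 7.72 and 6.81 against 6.05, 5.23 and 6.67. In percentiles these groups overlapped, since dexamethasone replicate 3 (24.2) lay below ethanol replicate 3 (24.8), and the difference was 0.58 ± 0.23 (limma adjusted p = 0.69). At 58.6 kb upstream (110310617 to 110311057) it was -0.44 ± 0.22 (limma adjusted p = 0.82). Here and 14.7 kb upstream the treatments overlapped, although the dexamethasone rank was lower in every numbered pair.

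KLF5, a factor of epithelial growth, had folds of 11.4, 12.1 and 9.66 at its start (73632731 to 73633312 on chromosome 13) with dexamethasone and 10.5, 11.4 and 8.91 with ethanol. The groups overlapped. The fold was higher with dexamethasone in each numbered pair, but the percentile among shared regions was not, at 77.36 against 77.45 in replicate 2. In none of its 4 shared regions did all ranks of one treatment lie above those of the other. At 31.5 kb downstream (73664596 to 73665005) the percentiles were 31.5, 45.8 and 66.1 against 60.7, 68.7 and 69.5, lower with dexamethasone in all 3 numbered pairs. This difference was -0.48 ± 0.24 (limma adjusted p = 0.82, and 0.57 with the replicate block). The largest positive difference was 0.16 ± 0.33 at 79.6 kb downstream (73712786 to 73713233; limma adjusted p = 0.99). This value turned negative without dexamethasone replicate 1 (-0.0075) or replicate 3 (-0.075) and was 0.56 without replicate 2. The region 37.2 kb downstream (73670367 to 73670743) was called with folds of 5.98, 6.13 and 5.08 in the dexamethasone libraries and 4.73 in ethanol replicate 3.

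KLF6, a broadly expressed zinc finger factor, had its start in a strong region (3827312 to 3827914 on chromosome 10, mean percentile within the lists 95.9), with folds of 11.7, 12.7 and 10.1 against 10.5, 11.5 and 11.8. The treatments overlapped there. At 24.8 kb upstream (3852263 to 3852750) the folds were 7.11, 6.48 and 6.78 with dexamethasone and 4.69, 4.79 and 6.16 with ethanol. Ethanol replicate 3 lay nearest to the dexamethasone libraries, and the percentiles were 51.2, 34.4 and 42.1 against 4.71, 4.65 and 25.4. The difference was 1.15 ± 0.30 (SE, n = 3 each, limma adjusted p = 0.40), the second largest positive one of the 48.

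Other regions of KLF6 differed less. At 29.9 kb downstream (3796970 to 3797552) the percentiles were 52.3, 40.3 and 45.7 against 22.5, 30.8 and 35.7, without overlap (difference 0.44 ± 0.18, limma adjusted p = 0.68). At 66.8 kb upstream (3894314 to 3895038) they were 55.6, 53.1 and 51.0 against 61.4, 64.2 and 73.7, so that dexamethasone ranks lay below ethanol ranks (-0.35 ± 0.16, limma adjusted p = 0.79). The weak region 18.1 kb upstream (3845539 to 3845882) had folds of 4.57, 5.08 and 4.94 with dexamethasone, 4.63 in ethanol replicate 1 and no peak in ethanol replicates 2 and 3.

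KLF9 was the only gene of the 7 whose start was not covered by a region. The nearest region (73028108 to 73029460 on chromosome 9, 1353 bp) began 113 bp inside the gene, and its folds of 5.21, 4.49 and 4.98 with dexamethasone overlapped those of 6.27, 5.12 and 5.04 with ethanol. Its dexamethasone rank was lower in every numbered pair. A wide region from 4.2 kb upstream (73033757 to 73035373, 1617 bp, with up to 3 peaks per library) was the strongest of the window by mean percentile within the lists (66.1). Its folds were 4.58, 5.67 and 5.97 against 6.24, 5.23 and 5.45, also overlapping. Next to it, 6.1 kb upstream (73035718 to 73036014), lay the weak region with folds of 4.47, 4.61 and 3.81 with dexamethasone and 3.35 in ethanol replicate 1 alone.

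The region with the largest difference of all 48 lay 23.8 kb upstream of KLF9, at 73053398 to 73053852. Its folds were 13.3, 12.5 and 12.2 with dexamethasone and 7.34, 5.75 and 4.43 with ethanol. The dexamethasone libraries were close to each other and far above every ethanol library. The peak itself spanned 425, 400 and 403 bp with dexamethasone and 304, 282 and 200 bp with ethanol, and the summits of the 6 libraries lay within 83 bp. Among shared regions its percentiles were 70.8, 64.2 and 77.2 against 17.7, 2.75 and 0.184, so that in ethanol replicate 3 it was close to the weakest of all. The difference in normal score was 2.47 ± 0.44 (SE, n = 3 each) and ranked 3rd among the 39934 shared regions. With limma's adjusted p at 0.17 (unadjusted 0.000596) it did not pass, and with trend and robust shrinkage it did (limma adjusted p = 0.0016). With 1 library left out the difference stayed between 1.94 and 2.89, with adjusted p of 0.12 to 0.43. The last shared region of the window, 69.9 kb upstream (73099494 to 73099778), had folds of 9.45, 8.07 and 8.81 against 8.91, 8.40 and 8.10, which overlapped. Its percentiles overlapped as well, although the dexamethasone rank was higher in every numbered pair.

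**Figure D3:**
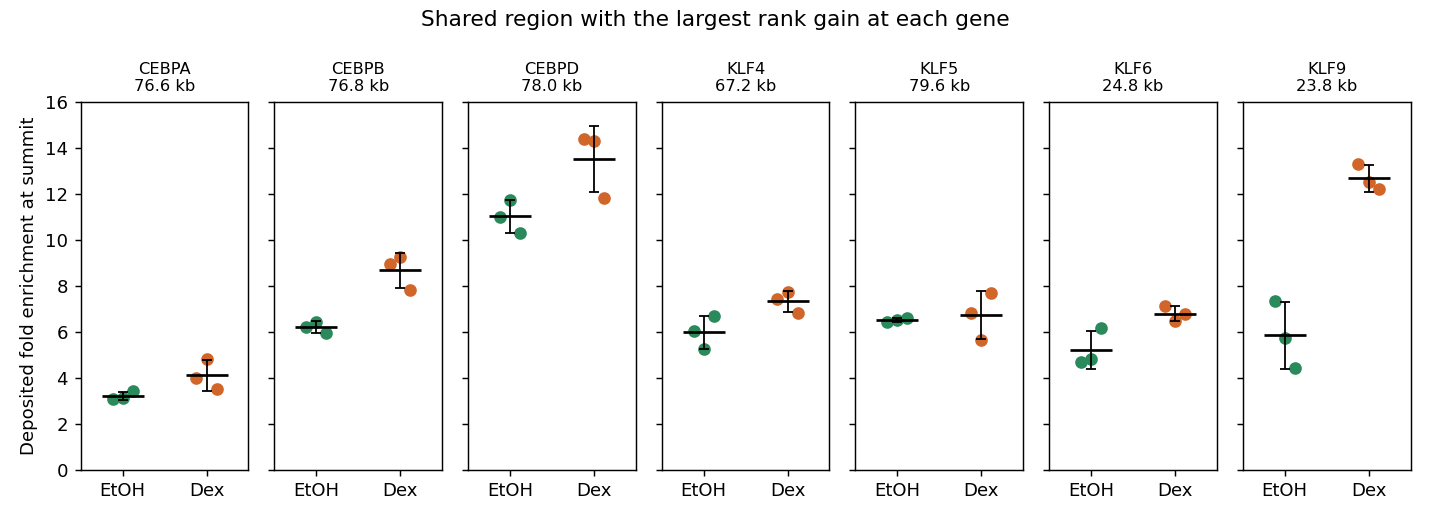
Deposited fold enrichment at the summit in each library for the shared region with the largest positive rank difference at each gene, headed by its distance from the gene start. Points are libraries (3 with ethanol, 3 with dexamethasone), lines with bars the mean ± SD. The KLF9 region shows the widest gap, 12.2 to 13.3 against 4.43 to 7.34, while the KLF5 values overlap.

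Gene starts and distal regions can be set side by side. The 6 start regions had differences of -0.21 to 0.14, and in 5 of them the treatments overlapped, KLF4 being the exception. The 7 regions with all dexamethasone ranks on top lay 23.8 to 88.3 kb from their gene start, 4 at C/EBP and 3 at KLF genes. The 4 regions with the reverse order lay 0 to 66.8 kb from theirs. Only 6 of the 48 shared regions covered a start, too few to tell starts from distal regions in this respect. The shares of regions without overlap were 4 higher and 2 lower of 29 for C/EBP and 3 higher and 2 lower of 19 for KLF. As shares these were 13.8% and 6.90% for C/EBP and 15.8% and 10.5% for KLF, beside 5.79% and 5.62% of all shared regions. Regions on the 2 sides of the 100 kb limit differed in strength at some genes. At CEBPA the outermost region inside lay at 99.9 kb with a single peak of 2.68-fold and the next outside at 104.2 kb with peaks of 6.22 to 8.16-fold in all 6 libraries. At KLF6 the next region outside lay at 101.0 kb, with peaks in 2 dexamethasone and 3 ethanol libraries, and the outermost one inside at 88.5 kb, with peaks in 3 and 2.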

How the data were processed

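DNase-seq peaks of 6 A549 libraries were analysed, 3 with dexamethasone and 3 with ethanol. Per the submitters' processing notes, hg19, CASAVA 1.3, Bowtie, MACS2 2.1.0 and bedtools were used; settings are not given in the sources used here. The deposited narrowPeak columns hold the fold enrichment as a ratio, −log10 p and −log10 q, a whole-number score of about 10 times −log10 q, and the summit, which follows the MACS2 layout. Peak numbering restarts in each file, as it would in calling by library. Read counts are not given in the sources used here, so no interval based on depth is possible.

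Peaks sharing at least 1 bp were merged genome-wide (Python 3.11.15). For shared regions the strongest peak per library was ranked by −log10 q. Normal scores of the ranks were fitted with limma 3.58.1 (R 4.3.3), treatment only, with Benjamini-Hochberg adjustment over 39934 regions. The script was tested on simulated data. The named regions were those at or nearest a start, the strongest, and the largest positive and negative difference per gene, with those whose ranks did not overlap. The members, lists and tests were chosen with earlier results of these data known. Peaks with identical coordinates made up at most 0.0463% of a list. Deviations from the treatment mean correlated weakly between equally numbered libraries (r = 0.124 to 0.208 over regions), so the numbers were taken to pair libraries. Other combinations gave -0.163 to -0.002. Deviations cancel out within a treatment, so these negative values follow from the positive ones and are no separate evidence. Alternatives were other thresholds, merging, windows, measures, variance models, left-out libraries and the replicate block, 1 form of which was added after seeing the data. Peak sequences and the windows of further family genes were not analysed here.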

Additional observations from a re-analysis of the deposited data

How the results depend on the processing

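The 94 regions became 53, their 48 shared regions 27 and the 11 shared regions without overlap 6 in a window of 50 kb, by construction. When a peak had to span at least 50% of a region, 30 were shared, and their share turned from above to below that of all regions (31.9% beside 41.6%, against 51.1% beside 49.2%). Dexamethasone-only regions numbered 1 instead of 0 in lists of one length (1.08%, beside 1.14% of all), the KLF5 region at 37.2 kb. With 1 library left out, which eases the rules, there were 0 to 3 dexamethasone-only regions (beside 1.52% to 2.17% of all) and 0 to 2 ethanol-only regions (beside 1.17% to 1.84%). Shared regions without overlap then numbered 14 to 20 (28.6% to 40.8%, beside 19.6% to 24% of all, against 22.9% beside 11.4% with every library). They numbered 20 without dexamethasone replicate 3 and 17 without ethanol replicate 2. The same order in all 3 numbered pairs, an alternative of the replicate block chosen after seeing the data, held in 22 of the 48 (45.8%, beside 28.8%). Under the replicate block 7 regions were dexamethasone-only and 3 ethanol-only, beside 4.47% and 4.8% of all. The block changed no call of limma among the 48 (0 called in either direction, KLF9 adjusted p = 0.19), though genome-wide 0 regions were called instead of 2. Limma with trend and robust shrinkage called 2 of the 48 higher and 0 lower, and 93 and 5 genome-wide. Ranking by fold enrichment called 5 regions higher genome-wide and 0 near these genes. Of 170 differences recomputed at 17 regions under settings that alter the estimate, 168 kept their direction and 2 changed sign. Both changes were at the KLF5 region 79.6 kb downstream, which ranged from -0.075 to 0.56 with 1 library left out. The 17 were chosen for ranks without overlap or for the largest differences at their gene. Most could therefore hardly change sign, and this count is no measure of robustness. The 2 regions that crossed the threshold, at KLF9 and CEBPD, did so with trend and robust shrinkage. Depth is unknown, and the unmodified fit called 2 of 39934 regions, so a miss of the threshold does not show that a region was alike in both treatments.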
